A study of Drosophila melanogaster with 12 samples.

Results

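A set of 10 genes of the p53 and apoptosis pathway of the fly was followed: the transcription factor p53, TP53INP, the fly homologue of a p53-inducible protein, the ribonucleotide reductase subunit RnrL, the death ligand egr, the killer genes hid and rpr, the caspases Dredd, Dronc and Drice, and the caspase inhibitor Diap1. The members were the probe sets whose single annotated gene symbol is one of these 10 names. Of the 10 genes, 6 had a probe set of that kind, 1 each, among the 14010 probe sets of the table, whose single symbols cover 10845 genes: p53 (CG33336), TP53INP (CG11347), RnrL (CG5371), egr (CG12919), Dredd (CG7486) and Dronc (CG8091). No probe set carried hid, rpr, Drice or Diap1 as its single symbol, and these 4 genes are not analysed here. All 6 measured members were bright enough to be tested.

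In flies, p53 is a transcription factor that is switched on after DNA damage by the checkpoint kinase lok (Chk2) and turns on killer genes such as rpr and hid as well as DNA repair genes. The proteins made by rpr, hid, grim and skl bind the inhibitor Diap1 and so free the initiator caspase Dronc, which on the scaffold Dark cleaves the effector caspases Drice and Dcp-1. A parallel route begins outside the cell, where the tumour necrosis factor egr binds the receptors wgn and grnd and drives the JNK kinase bsk, while the caspase Dredd acts mainly in the Imd branch of fly innate immunity.

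RNA had been prepared from the nucleus and the cytoplasm of D. mel-2 cells, a cultured Drosophila melanogaster line of embryonic origin. The 4 groups, each of 3 arrays, were nuclei of cells given RNA interference against U2AF50 (the larger protein of the U2AF dimer, which recognises the end of introns for splicing), nuclei of cells given a non-specific (NS) RNA interference, and the cytoplasm of the U2AF50-depleted and of the NS cells. All 12 samples shared the cell line, all had been given RNA interference of some kind, and no untreated cells are among them. Hypotonic lysis is named as the fractionation for 9 of the 12 samples. Whether replicates were separate cultures is not stated, so the p-values may reflect technical spread alone.

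The values are deposited linear intensities, scaled by the authors so that each array has the same trimmed mean, and the number of arrays limits the precision. An intensity therefore says how large a share of an array's signal a transcript takes, not how many copies a cell holds, and fewer cells with a transcript cannot be told apart from less of it per cell. The probe set of U2af50, the targeted gene, fell in the cytoplasm, to 1029.5, 1327 and 1142.7 in U2AF50-depleted cytoplasm against 2474.4, 5606.2 and 4751 in NS cytoplasm, a log2 change of -1.75 ± 0.26 (SE; limma adjusted p = 0.0012). In nuclei its intensities were 2718.4, 1737.7 and 1677.5 after U2AF50 depletion and 1701.2, 1709.7 and 1589 under NS treatment, and the log2 change of 0.21 did not pass the test (limma adjusted p = 0.738), so the nuclear arrays do not show the knockdown of this transcript. The nuclear samples called U2AF50-depleted throughout are so named from their labels alone. Of 9 plasmatocyte markers with a probe set, the blood cell type that such lines resemble, 8 were bright enough to be tested, beside 2 of 3 fat body, 1 of 4 crystal cell and 0 of 3 neuronal markers. The ratio of 3' to 5' GAPDH control signal, a measure of RNA integrity, was 6.19 ± 2.07 in U2AF50-depleted nuclei and 6.24 ± 1.76 in NS nuclei, but 2.90 ± 0.657 in U2AF50-depleted cytoplasm and 5.42 ± 2.17 in NS cytoplasm (SD, n = 3 each). The log2 signal of the hybridisation controls averaged 14.2 ± 0.889 in depleted and 13.8 ± 0.441 in NS nuclei (SD). In depleted cytoplasm it averaged 12.3 ± 0.215, against 13.5 ± 1.10 in NS cytoplasm (SD). In the cytoplasm both measures thus differed with treatment, so a fit with either as a covariate cannot fully separate it from treatment.

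Depletion of U2AF50 was set against NS treatment in each fraction to ask whether the mRNA of death pathway genes changes when this general splicing factor is lost. Of the 6 members, p53, TP53INP and RnrL were higher and Dredd was lower in at least 1 fraction, while egr and Dronc passed in neither. In the cytoplasm 2 of 6 members were called higher (p53 and TP53INP) and 0 lower. Over the 8379 probe sets tested, 2.57% were called there, 1.77% higher and 0.8% lower. In nuclei TP53INP and RnrL were called higher and Dredd lower, 3 of 6, against 3.4% of all probe sets, 1.58% higher and 1.83% lower. The normalised values of the 2 treatments did not overlap for 3 of 6 members in the cytoplasm and 4 of 6 in nuclei, beside 27.9% and 19.4% of all probe sets. The median log2 change of the 6 members was 0.40 in the cytoplasm and 0.35 in nuclei, beside 0.04 and -0.05 over all probe sets tested. The members were chosen with earlier results of these data known. These shares and medians are therefore not independent evidence about the pathway. Log2 changes here and below are of quantile-normalised log2(intensity + 94.7), which understates the change of weakly expressed genes, and a call is a limma adjusted p under 0.05 over all probe sets tested.

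**Figure D1:**
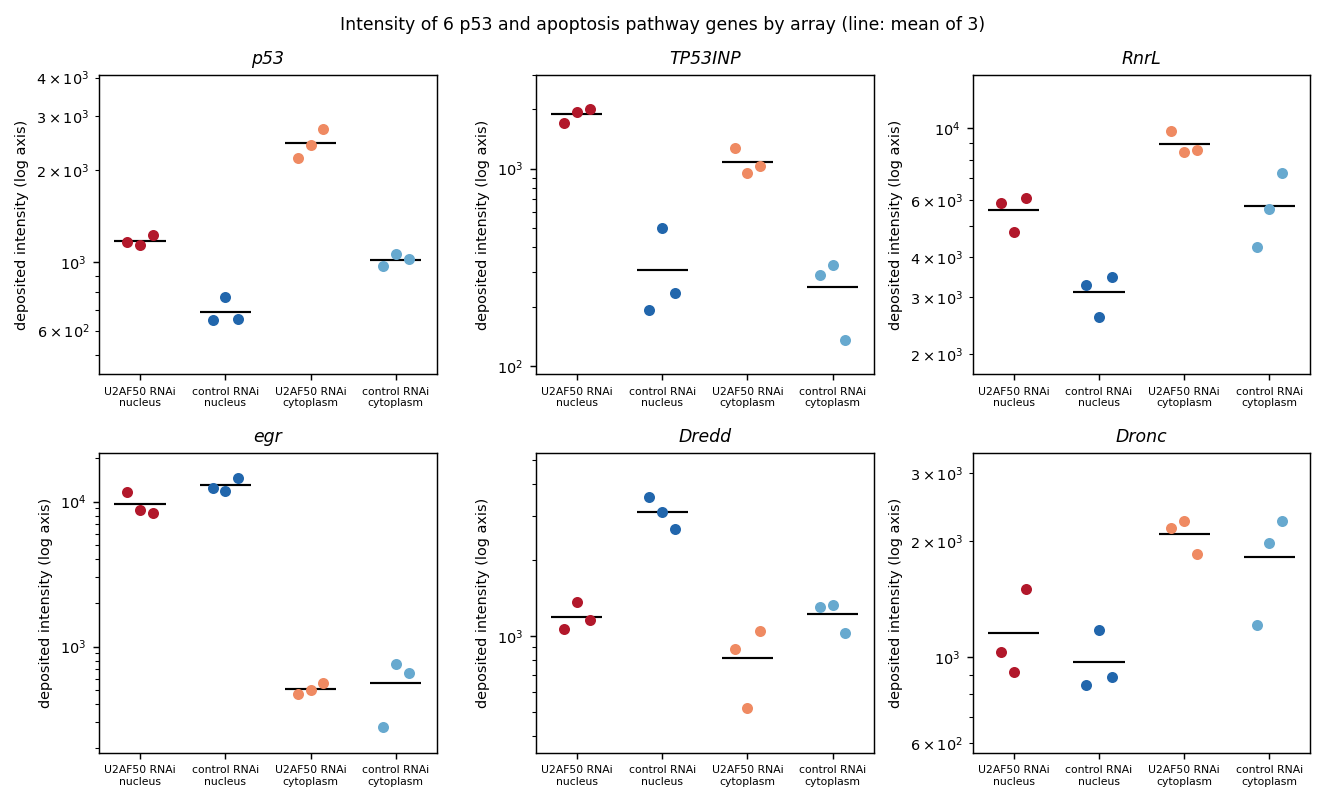
Deposited intensities of the 6 measured members on log axes, 1 panel a gene, for U2AF50 RNAi and control (NS) RNAi samples of the nucleus and the cytoplasm. Each point is 1 array and each line the mean of 3; TP53INP stands apart between treatments in both fractions, and egr stands apart between fractions.

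p53 itself was the first member to differ. Its intensity was 2195.7, 2402.8 and 2727.1 in U2AF50-depleted cytoplasm, against 973, 1065.2 and 1023.8 in NS cytoplasm. Every depleted sample was above 2 times every control sample, and the replicates of each group lay close together. The log2 change was 1.14 ± 0.23 (SE), a 2.2-fold rise (limma adjusted p = 0.0131). In nuclei p53 read 1162, 1139.5 and 1230.1 after U2AF50 depletion, against 648.5, 769.1 and 652.4 under NS treatment. The nuclear groups did not overlap either, but the smaller log2 change of 0.63 ± 0.23 (SE) missed the threshold (limma adjusted p = 0.157). The test of the difference between the fractions gave -0.51, with a 95% interval of -1.19 to 0.16 (limma adjusted p = 0.501), so the data do not show that p53 responded differently in the 2 fractions. The cytoplasmic call was lost in 4 of 26 alternatives: with the GAPDH ratio in the fit (adjusted p = 0.0915), with the hybridisation controls in the fit (0.0698), and without the second (0.0714) or the third (0.102) U2AF50-depleted cytoplasmic array. Both of these quality measures averaged lower in depleted than in NS cytoplasm. Here and below, the 26 include the effect averaged over both fractions, a different quantity chosen after the values were seen.

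TP53INP had the largest change of the 6. It is the fly homologue of the mammalian p53-inducible nuclear proteins, which act in stress responses and in autophagy. Nuclear intensities were 1704.2, 1946.1 and 2001.4 after U2AF50 depletion, against 191.7, 499.4 and 233.1 under NS treatment. Cytoplasmic intensities were 1271.9, 953 and 1033.7 after depletion, against 288.2, 325.1 and 136.1 under NS treatment. All 6 depleted samples were above all 6 control samples, whatever the fraction. In nuclei the log2 change was 2.40 ± 0.34 (SE; limma adjusted p = 5.86e-04), the sixth highest of the 8379 tested. In the cytoplasm it was 1.85 ± 0.34 (SE; limma adjusted p = 0.00889), the tenth highest. On the deposited scale the mean in depleted samples was 6.12 times that in NS samples in nuclei and 4.35 times in the cytoplasm. The NS samples were dim: the NS cytoplasm mean lay at the 38.1 percentile of probe sets and the NS nuclear mean at the 44.1 percentile. The filter was set at the 40th percentile of the mean over all arrays. On its NS cytoplasm mean alone the gene would not have passed, and on its NS nuclear mean alone it would. The nuclear call held in 26 of 26 alternatives. The cytoplasmic call was lost in 3 of 26: with the GAPDH ratio in the fit (adjusted p = 0.0772) and without the first (0.0549) or the third (0.0505) depleted cytoplasmic array.

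RnrL encodes the large subunit of ribonucleotide reductase, the enzyme that makes the building blocks for DNA synthesis and repair. Its nuclear intensity was 5877.4, 4778.9 and 6075.8 after U2AF50 depletion, against 3275.9, 2604.7 and 3464.4 under NS treatment. The lowest depleted nucleus was brighter than the highest control nucleus, with a log2 change of 0.94 ± 0.17 (SE), a 1.92-fold rise (limma adjusted p = 0.00451). In the cytoplasm RnrL read 9776.3, 8471.9 and 8572 after depletion, against 4281.8, 5630.1 and 7288.9 under NS treatment. These groups did not overlap, but the NS arrays were spread out and the log2 change of 0.60 ± 0.17 (SE) missed the threshold (limma adjusted p = 0.0764). The nuclear call was lost in 2 of 26 alternatives, with arrays centred on their median in place of quantile normalisation (adjusted p = 0.131) and without the intensity trend (0.0516). The cytoplasmic difference gained a call in 4 of 26, among them the average over both fractions (limma adjusted p = 8.98e-04), which is not a cytoplasmic change.

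Dredd moved the other way. This initiator caspase is best known for cleaving Imd and Relish in the antibacterial response. In nuclei its intensity was 1063.2, 1364.5 and 1153.4 after U2AF50 depletion, against 3560, 3116.4 and 2650.9 under NS treatment. The brightest depleted nucleus had about as much Dredd signal as the NS cytoplasm, and only the NS nuclei were high. The log2 change was -1.32 ± 0.24 (SE), a 2.5-fold drop (limma adjusted p = 0.00559). This nuclear call held in 26 of 26 alternatives, with adjusted p up to 0.0443. In the cytoplasm Dredd read 887.7, 515.7 and 1042.5 after depletion, against 1300.2, 1323.5 and 1028.2 under NS treatment. There the groups overlapped and the log2 change of -0.49 ± 0.24 (SE) did not pass (limma adjusted p = 0.344). For Dredd the shift in nuclear over cytoplasmic signal was -0.83, with a 95% interval of -1.56 to -0.10 (unadjusted p = 0.0279, limma adjusted p = 0.319), which does not pass after adjustment.

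Dronc, the initiator caspase of the apoptosome, showed no change with treatment that passed the test. Nuclear intensities were 1031.7, 916.2 and 1504.4 after U2AF50 depletion, against 848.9, 1177.7 and 890.1 under NS treatment. Cytoplasmic intensities were 2159.7, 2249.3 and 1852 after depletion, against 1212.3, 1969.9 and 2251.7 under NS treatment. The groups overlapped in both fractions, with log2 changes of 0.08 (95% interval -0.49 to 0.65) in nuclei and 0.19 (-0.38 to 0.77) in the cytoplasm, and limma adjusted p of 0.915 and 0.774. Changes of a size within these intervals are not excluded.

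egr, the only tumour necrosis factor of the fly, also did not pass with treatment. In nuclei it read 11621.1, 8785.8 and 8358.8 after U2AF50 depletion, against 12514.8, 11851.7 and 14487.8 under NS treatment. In the cytoplasm it read 468.1, 504 and 556.5 after depletion, against 278.2, 758.3 and 652.4 under NS treatment. The deposited nuclear intensities were lower in all 3 depleted samples, but the normalised values overlapped, and the log2 change was -0.30 ± 0.28 (SE; limma adjusted p = 0.651). The cytoplasmic log2 change was 0.16 ± 0.28 (SE; limma adjusted p = 0.823), and its sign turned in 6 of 26 alternatives.

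**Figure D2:**
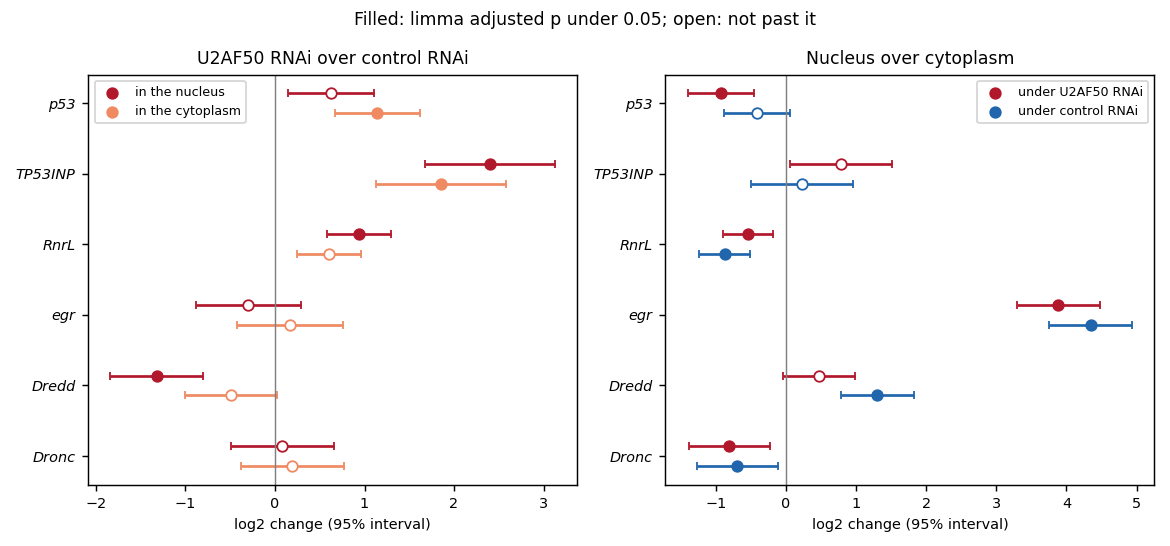
Log2 changes of the 6 measured members, U2AF50 RNAi over control (NS) RNAi in each fraction on the left and nucleus over cytoplasm under each treatment on the right, with 95% intervals from the fit over all 12 arrays (3 a group). Filled points passed the adjusted threshold: on the left TP53INP in both fractions, p53 in the cytoplasm, and RnrL and Dredd in the nucleus, and on the right egr lies near 4 under both treatments.

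The difference in response between fractions was tested directly. None of the 6 members passed (0 of 6; limma, 1 of 6 at an unadjusted p under 0.05, Dredd), beside 0.167% of all probe sets. The estimates ran between -0.83 for Dredd and 0.55 for TP53INP (SE 0.49; limma adjusted p = 0.641). Passing in only 1 fraction, as p53, RnrL and Dredd did, is therefore not evidence that the fractions differ. An effect averaged over both fractions, a contrast chosen after the values were seen, was called for 4 of the 6 members, 3 higher and 1 lower, against 5.26% of all probe sets, 2.88% higher and 2.39% lower. It was 2.13 for TP53INP (limma adjusted p = 4.33e-05), 0.88 for p53 (0.00295), 0.77 for RnrL (8.98e-04) and -0.91 for Dredd (0.00452).

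Genes around the members were read from 11 lists covering DNA damage signalling, p53 targets and repair, killer genes, caspases, caspase inhibitors, the Bcl-2 family, the TNF and JNK route, apoptotic nucleases, engulfment, autophagy and the Hippo pathway. Of their 75 genes 64 had a probe set with a single symbol and 56 were tested, each on its brightest probe set. In the cytoplasm 0 of the 56 passed in limma (13 at an unadjusted p under 0.05), beside the 2.57% of all probe sets (15.8% at an unadjusted p under 0.05). Their median log2 change was 0.30 and 46 of the 56 had a positive value, beside a median of 0.04 and 53.4% positive over all probe sets. In nuclei 3 of 56 passed, 5.36%, beside 3.4% of all probe sets, and the median was -0.04, beside -0.05 over all probe sets. The lists, like the members, were chosen with earlier results of these data known.

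The 3 nuclear calls were rad50 and lok from the DNA damage signalling list (2 of 9 tested) and Irbp from the repair list (1 of 6 tested). Irbp, the fly Ku70, binds broken DNA ends for end joining. Irbp's nuclear intensity was 1432.3, 1283.4 and 1447.8 after U2AF50 depletion, against 740.7, 520.3 and 246.3 under NS treatment, a log2 change of 1.39 ± 0.30 (SE; limma adjusted p = 0.0164). In the cytoplasm it was also above the controls in every sample, at 2638.7, 2428.6 and 3010.1 after depletion against 1609.9, 1220.1 and 1370.5 under NS treatment, but the log2 change of 0.83 did not pass (limma adjusted p = 0.175). rad50, a subunit of the complex that senses double-strand breaks, read 2516, 2905.5 and 3711.1 in depleted nuclei, against 1695.1, 1187.4 and 1857.4 in NS nuclei. Its log2 change was 0.94 ± 0.21 (SE; limma adjusted p = 0.0222). lok, the kinase that activates p53, fell in nuclei: 281, 188.8 and 719.2 after depletion, against 1488.9, 893.3 and 779.7 under NS treatment, a log2 change of -1.54 ± 0.39 (SE; limma adjusted p = 0.0360). In the cytoplasm lok read 1357.8, 1050.5 and 1522 after depletion and 1107.6, 1160.5 and 1420.3 under NS treatment, and these groups overlapped. The lok call was lost in 15 of 26 alternatives, that of rad50 in 7 and that of Irbp in 3. Ku80, the partner of Irbp in the DNA end-binding dimer, did not pass in either fraction.

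**Figure D3:**
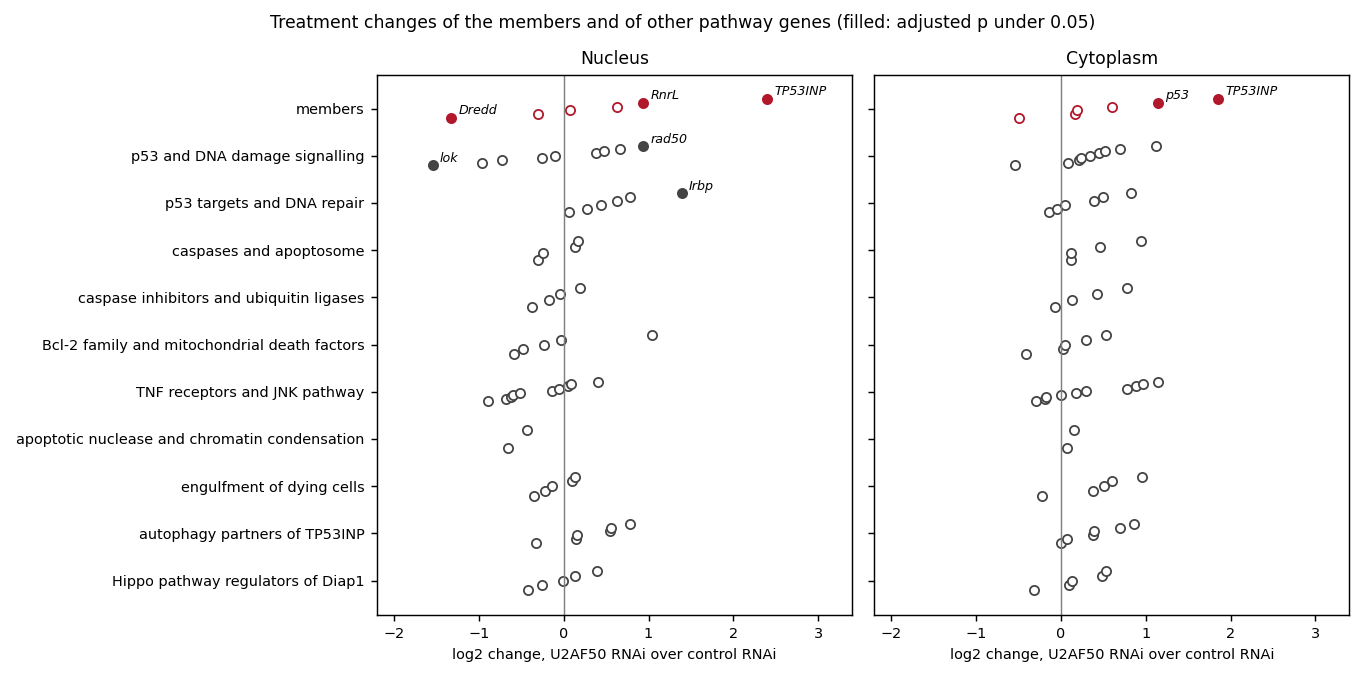
Log2 change, U2AF50 RNAi over control (NS) RNAi, of the members and of the tested genes of the surrounding lists, 1 row a list and 1 point a gene (3 arrays a group), in the nucleus on the left and the cytoplasm on the right. Filled, named points passed the adjusted threshold; outside the members these were the nuclear values of Irbp, rad50 and lok, and the cytoplasmic values of the surrounding genes sit mostly to the right of 0.

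With the fractions averaged, again a contrast chosen after the values were seen, 5 of the 56 surrounding genes passed, 5 higher and 0 lower, beside 2.88% higher and 2.39% lower of all probe sets. They were Irbp (log2 change 1.11; limma adjusted p = 0.00458), ref(2)P (0.82; 0.00795), rad50 (0.73; 0.00798), PolZ1 (0.64; 0.0289) and mre11 (0.50; 0.0391). The product of mre11 works in the same complex as that of rad50. PolZ1 is the catalytic subunit of a polymerase that copies past damaged DNA. ref(2)P is the fly p62, which carries ubiquitylated cargo to autophagosomes, and it was on the list of autophagy partners of TP53INP.

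The other steps of the death pathway gave no treatment call in either fraction. For the unadjusted counts that follow, an unadjusted p under 0.05 was reached by 16.4% of all probe sets in nuclei and 15.8% in the cytoplasm. Among the caspases and apoptosome genes 0 of 4 tested passed in limma in either fraction (0 at an unadjusted p under 0.05). The effector caspase Dcp-1 averaged 828.9 in depleted cytoplasm against 433.4 in NS cytoplasm (log2 change 0.94 ± 0.56, SE; limma adjusted p = 0.432). Averaged over both fractions, its log2 change was only 0.32 ± 0.40 (SE; limma adjusted p = 0.727). The scaffold Dark averaged 1230.7 in depleted nuclei against 1050.3 in NS nuclei, and 987.7 in depleted cytoplasm against 922.9 in NS cytoplasm. Among caspase inhibitors and ubiquitin ligases 0 of 4 tested passed in limma (at an unadjusted p under 0.05, 0 in nuclei and 1 in the cytoplasm), Diap2 with log2 changes of -0.05 in nuclei and 0.43 in the cytoplasm and Bruce with -0.18 and -0.07. Of the Bcl-2 and mitochondrial genes 0 of 5 tested passed in limma (unadjusted, 0 in nuclei and 1 in the cytoplasm). Of the TNF and JNK genes 0 of 10 passed (unadjusted, 2 in nuclei and 4 in the cytoplasm). Their log2 changes were positive for 3 of 10 in nuclei (median -0.32) and 7 of 10 in the cytoplasm (median 0.24). The medians over all probe sets were -0.05 and 0.04. Among these genes bsk had a cytoplasmic value of 0.89 ± 0.27 (SE; limma adjusted p = 0.104), and 0.42 averaged over both fractions (limma adjusted p = 0.255).

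The killer genes could be seen only through grim and skl, which lie in the same stretch of the RefSeq annotation (Release 6) as hid and rpr. Both were too dim to test. Over the 12 arrays grim ran between 37.5 and 939.9 with a median of 172, and skl between 30.2 and 242.9 with a median of 65.9. The second TNF receptor grnd was dim as well (median 95.2), as were the caspase Damm, the Bcl-2 family gene Buffy and the nuclease genes Drep1, Drep2 and Drep3. An intensity this low says that the probe set gave little signal here, not that the gene was silent.

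Nuclear and cytoplasmic samples were then compared within each treatment to ask in which fraction each transcript took the larger share of signal. All arrays have the same scale, so these differences do not say where most copies lay. The 6 members did not behave alike. Signal of egr was much higher in the nuclear fraction, and that of Dredd was higher there under NS treatment. p53, RnrL and Dronc had lower nuclear signal, p53 past the threshold only after depletion. Such a lean was common: 23.8% to 44.0% of all tested probe sets lay lower still, by gene and treatment. Under U2AF50 depletion 1 of 6 was called higher and 3 lower in nuclei, and under NS treatment 2 higher and 2 lower. Such calls were frequent over all probe sets. After depletion 48.8% were called, 17.9% higher and 30.9% lower, and under NS treatment 42.1%, 16.9% higher and 25.2% lower. The fractions did not overlap for 6 of 6 members after depletion and 4 of 6 under NS treatment, beside 59.2% and 51.6% of all probe sets, so little can be read from how many members differed. The median log2 difference over all probe sets was -0.29 after depletion and -0.27 under NS treatment.

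egr gave the widest split. From the intensities above, its mean in nuclei was 18.8 times that in the cytoplasm after U2AF50 depletion and 23 times under NS treatment. The log2 differences were 3.89 ± 0.28 (SE; limma adjusted p = 3.98e-09) and 4.35 ± 0.28 (SE; limma adjusted p = 6.75e-10), and both calls held in 25 of 25 alternatives. egr makes a membrane-anchored protein whose mRNA is translated at the endoplasmic reticulum. Of 8 transcripts translated there or encoding its machinery, 8 were called higher in the nuclear fraction after depletion and 7 under NS treatment, with median log2 differences of 4.04 and 4.26. Their summed intensity was 336599.5 to 425744.5 in depleted nuclei, 373731.3 to 422124.7 in NS nuclei, 24768.6 to 29179.4 in depleted cytoplasm and 25370.9 to 30501.7 in NS cytoplasm. For 7 of the 8 endoplasmic reticulum transcripts the log2 difference was 3 or more under each treatment, as it was for egr. The exception, Hsc70-3, had 0.83 after depletion and 0.15 under NS treatment. The part of such transcripts in the value of egr was not tested.

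Among the surrounding genes, wgn, drpr and crq were called higher in nuclei under both treatments. The TNF receptor wgn had log2 nucleus to cytoplasm differences of 2.26 after depletion and 2.70 under NS treatment. The engulfment receptor drpr averaged 19105.6 in depleted nuclei and 19748.7 in NS nuclei, against 2606 in depleted cytoplasm and 1646.5 in NS cytoplasm. The engulfment receptor crq had differences of 2.02 and 2.84. The part of endoplasmic reticulum transcripts carried by the nuclear fraction in the values of these receptors was not tested either. Of the 56 surrounding genes, 3 were called higher and 26 lower in nuclei after depletion, and 4 higher and 17 lower under NS treatment. After depletion the lowest differences of the 56 were those of the autophagy gene Atg8a (-2.27), the survivin homologue Det (-1.97) and the effector caspase Dcp-1 (-1.92). Under NS treatment they were those of Atg8a (-2.05), the replication clamp PCNA (-1.68) and Det (-1.47).

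p53 was higher in the cytoplasm in every depleted sample, with a log2 nucleus to cytoplasm difference of -0.93 ± 0.23 (SE; limma adjusted p = 0.0025). Under NS treatment its difference was -0.41 (limma adjusted p = 0.159), which did not pass. RnrL was lower in nuclei under both treatments, at -0.54 after depletion (limma adjusted p = 0.0148) and -0.87 under NS treatment (3.88e-04). Dronc was lower in nuclei too, at -0.81 after depletion (limma adjusted p = 0.0211) and -0.69 under NS treatment (0.0498). The last of these stood at the threshold and was lost in 13 of 25 alternatives. After depletion the call of RnrL was lost in 5 of 25 and that of Dronc in 6 of 25, both of them with the GAPDH ratio (adjusted p = 0.123 for RnrL and 0.414 for Dronc), with hybridisation controls (0.610 and 0.669), without the second depleted nuclear array (0.0625 and 0.0804) and without the first depleted cytoplasmic array (0.0726 and 0.0657). RnrL lost it also without the intensity trend (0.0571), and Dronc without the first depleted nuclear (0.0531) or the second depleted cytoplasmic array (0.0731). The call of p53 after depletion held in 25 of 25. Dredd was higher in nuclei under NS treatment, at 1.30 ± 0.24 (SE; limma adjusted p = 2.75e-04), while its 0.47 after depletion did not pass (0.12). TP53INP had differences of 0.78 after depletion (limma adjusted p = 0.0692) and 0.23 under NS treatment (0.626), neither of which passed.

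**Figure D4:**
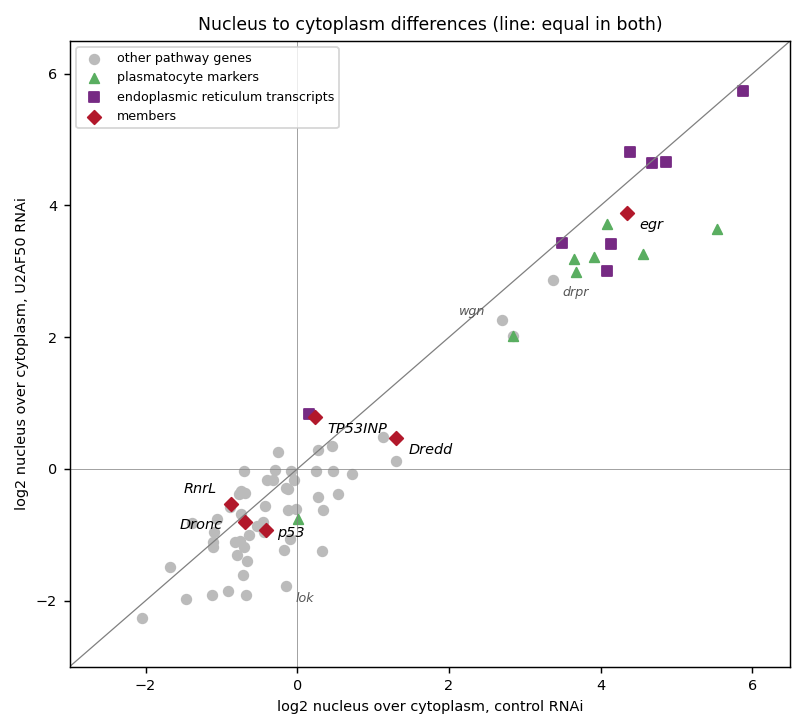
Log2 nucleus over cytoplasm difference under U2AF50 RNAi (vertical axis) against that under control (NS) RNAi (horizontal axis) for the members, the surrounding genes, the plasmatocyte markers and the endoplasmic reticulum transcripts, 1 point a gene, with a line where both are equal. egr (3.89 and 4.35) lies among the endoplasmic reticulum transcripts and the plasmatocyte markers, and p53, RnrL and Dronc lie below 0 on both axes.

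Each intensity comes from its own probe set, so no member's level was set against another's. Among replicates, p53 had the lowest coefficient of variation of any member and group, 4.01% in depleted nuclei, and TP53INP the highest, 54.2% in NS nuclei. RnrL varied by 8.12% in depleted cytoplasm and 26.3% in NS cytoplasm. egr varied by 8.73% in depleted cytoplasm and 44.8% in NS cytoplasm, where its first array read 278.2.

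Genes whose profile over the 12 arrays was most like that of p53 or TP53INP were found by Pearson correlation among 7450 probe sets with a single symbol, as a description, since all points share the same 4 groups. For p53 these were RPA1 (0.98), a subunit of the protein that coats single-stranded DNA, the glutathione transferase GstD5 (0.96), the RNA ligase cofactor Archease (0.94) and obe (0.93). RPA1 averaged 15143.6 in depleted cytoplasm against 6231.5 in NS cytoplasm, and 7420.7 in depleted nuclei against 3690 in NS nuclei. Its order of groups is that of p53, which follows from its choice by correlation and is no further observation. GstD5 averaged 9234.3 in depleted cytoplasm against 1886.8 in NS cytoplasm. For TP53INP the most alike were osy (0.93), the germ plasm gene osk (0.90), Mppe (0.86) and the mitochondrial protease gene Afg3l2 (0.86). osk averaged 3010.1 in depleted nuclei against 636.7 in NS nuclei, and 915 in depleted cytoplasm against 229.2 in NS cytoplasm. That it too was highest in depleted nuclei likewise follows from how it was chosen.

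**Figure D5:**
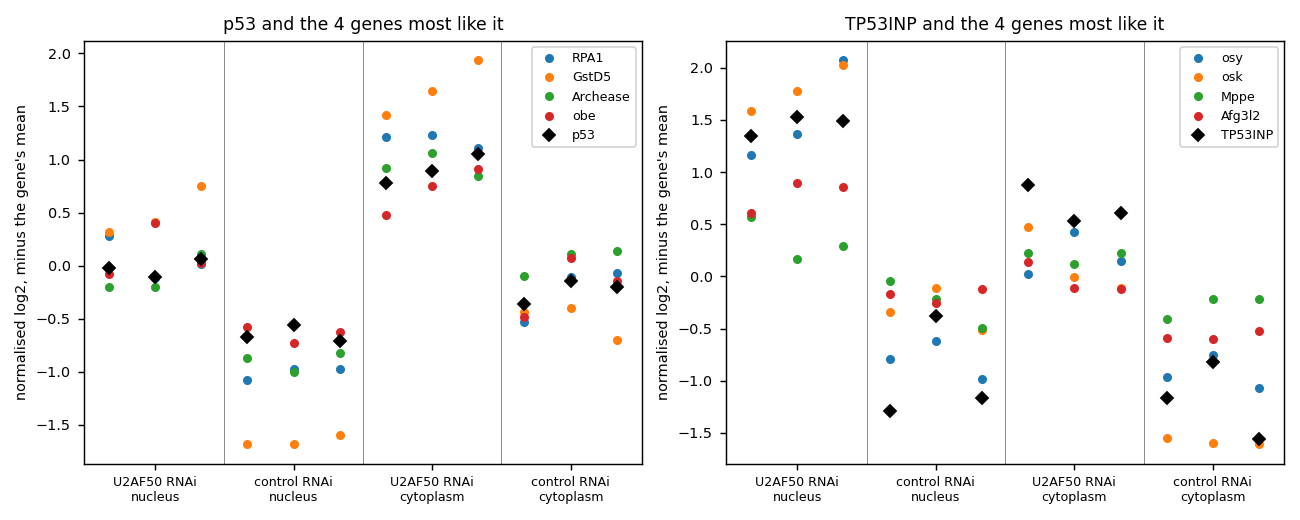
Normalised log2 values, each minus the gene's mean, of p53 (left) and TP53INP (right) as diamonds and of the 4 genes most like each as circles, over the 12 arrays in their 4 groups, 1 point an array. The genes like p53 average highest in U2AF50-depleted cytoplasm, and those like TP53INP in U2AF50-depleted nuclei, as they were picked for this likeness.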

How the data were processed

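The 12 arrays are 1-colour Affymetrix arrays. The authors deposited 1 linear intensity for each of 14010 probe sets and array; read from the values, each column has a mean of 1000 without its lowest and highest 2%. The image software and the probe summary method were not given in the sources used here. Median intensities ran between 334.4 and 496.8, and replicate arrays correlated at 0.863 to 0.959.

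Intensities were turned into log2(value + 94.7), the 20th percentile of all values, and quantile normalised over the 12 arrays. The 44 control probe sets were removed, and probe sets with a mean above the 40th percentile were tested (8379 of 13966). limma 3.58.1 in R 4.3.3 (lmFit, eBayes with trend, 8 residual degrees of freedom) fitted the 4 groups together, with Benjamini-Hochberg adjustment over all tested probe sets. The procedure was tested on simulated data with independent normal errors and the same planted changes in both fractions. Array quality did not differ between treatments there, so the simulation does not cover the quality differences seen in the cytoplasm.

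Gene symbols come from the platform annotation (1 symbol for 12444 probe sets, several for 327, none for 1239). All members are named. Surrounding genes are named where they passed a treatment contrast or had the largest fraction differences in their list; those named beyond this (Dark, Diap2, Bruce, bsk, Ku80 and the untested genes) were chosen after their values were seen. Members and lists were chosen with earlier results of these data known. Alternatives covered normalisation, pseudocount, filter, intensity trend, array weights, quality covariates, the samples fitted, a replicate block and leaving out each array. For the treatment contrasts they also included the effect averaged over both fractions, which was not planned.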

Additional observations from a re-analysis of the deposited data

Results flagged for a closer look

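The response of U2af50, the gene targeted by the interference, differed between fractions: the nucleus to cytoplasm ratio of its signal changed by 1.96 ± 0.37 on the log2 scale (SE; limma adjusted p = 0.0375), with a nuclear change of 0.21 and a cytoplasmic change of -1.75. This test of the difference passed in 10 of 24 alternatives. No member's values met a rule for a closer look.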

How the results depend on the processing

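Of the member calls with treatment, TP53INP and Dredd in nuclei passed in 26 of 26 alternatives, and egr between fractions in 25 of 25 under both treatments. The 26 include the effect averaged over both fractions, which is not a nuclear change. Which signals can be called is limited by 3 arrays a group and, for TP53INP in NS samples, by low signal. The cause of the changes below was not tested.

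Signs turned for small changes. For egr in the cytoplasm they were -0.038 with values as deposited, -0.051 with the GAPDH ratio, -0.11 with hybridisation controls, -0.11 with array weights, -0.29 without the first NS cytoplasmic array and -0.066 averaged over fractions (leaving out 1 array, -0.29 to 0.42). For Dronc they were -0.17, -0.17 and -0.070 in the cytoplasm (GAPDH ratio, hybridisation controls, without the first NS cytoplasmic array), -0.14 in nuclei without the third depleted array, and 0.24, 0.38, 0.061, 0.057 and 0.15 for the ratio change (GAPDH ratio, hybridisation controls, array weights, without the second depleted nuclear array, without the first NS cytoplasmic array). Leaving out 1 array, Dronc ran between -0.070 and 0.36 in the cytoplasm, -0.14 and 0.25 in nuclei, and -0.34 and 0.15 for the ratio change. The ratio change of RnrL was -0.23 with median centring, TP53INP between NS fractions -0.047 without the second NS nuclear array (-0.047 to 0.42 over arrays left out), and U2af50 in nuclei -0.017 without the first depleted array (-0.017 to 0.35) and -0.77 averaged.

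Members called in the cytoplasm were 0 with the GAPDH ratio, 1 with hybridisation controls and 4 averaged, against 2; between depleted fractions 2 with either covariate, against 4. Surrounding genes called in the cytoplasm were 8 with array weights, 7 with median centring, 3 with only the groups compared, 1 with the replicate block and 5 averaged, against 0; in nuclei 0, 5, 1, 0 and 5 (array weights, hybridisation controls, no trend, only the groups compared, averaged), against 3; between depleted fractions 13 with hybridisation controls, against 29.

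Over all probe sets, cytoplasmic calls were 50 with the GAPDH ratio, 580 with array weights, 361 with median centring, 61 with hybridisation controls, 125 unfiltered, 43 without trend and 441 averaged, against 215. Nuclear calls were 168 with array weights, 155 without trend, 178 with only the groups compared and 441 averaged, against 285. Calls of the ratio change were 5, 28, 183, 25, 25, 3, 7, 5, 27 and 35 (GAPDH ratio, array weights, median centring, doubled pseudocount, 60th percentile filter, hybridisation controls, unfiltered, no trend, quantiles within fractions, as deposited), against 14; between depleted fractions 2669 with hybridisation controls, against 4088. Median centring moved the median of all probe sets to 0.21 in the cytoplasm, -0.15 in nuclei, -0.52 between depleted fractions, -0.31 between NS fractions and -0.38 for the ratio change. Calls then were higher in 87.8% in the cytoplasm (68.8% otherwise), 22.3% in nuclei (46.3%) and 5.46% for the ratio change (42.9%; 28.6% as deposited, 25.9% with quantiles within fractions).

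Leaving out 1 array at a time gave 0 to 3 member calls in the cytoplasm, 3 to 3 in nuclei, 2 to 4 between depleted and 3 to 4 between NS fractions, and 0 to 0 for the ratio change. For surrounding genes the ranges were 0 to 4, 1 to 5, 23 to 31, 15 to 24 and 0 to 0, and over all probe sets 52 to 378, 124 to 351, 3437 to 4244, 3106 to 3714 and 3 to 83.

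Whether replicate numbers pair the samples is not known. The 18 same-number pairs correlated between -0.09 and 0.14, 1 of them over 0.1, which cannot settle it with 3 arrays a group. With the replicate block, members called stayed at 2 in the cytoplasm and 3 in nuclei, with Dronc between NS fractions at an adjusted p of 0.0524.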

Other observations

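Summed intensities of the plasmatocyte markers, which were used to check the cell line, were 47502.5 to 54353.3 in U2AF50-depleted nuclei and 70464.7 to 77872.8 in NS nuclei, and 9045.8 to 10405.5 in depleted cytoplasm and 6465.6 to 7835.8 in NS cytoplasm. The ranges of these sums did not overlap between treatments in either fraction. Normalised log2 values of single probe sets did not overlap for 27.9% of all tested in the cytoplasm and 19.4% in nuclei. A sum of deposited intensities is a different measure, weighted to the brightest markers, so these shares are no direct yardstick for it. Taken singly, 0 of 8 tested markers were called in the cytoplasm and 1 of 8 in nuclei (Col4a1, lower), beside 2.57% and 3.4% of all probe sets. Log2 changes were positive for 7 of the 8 in the cytoplasm and 2 of the 8 in nuclei, beside 53.4% and 45.9% of all probe sets. Hml and vkg were dim in NS cytoplasm, averaging 141.3 and 134.2. The deposited mean of Hml in depleted cytoplasm, 139.9, was no higher, although its log2 change was positive. The part of these markers in the members' values was not tested.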
